A study of Mus musculus with 19 samples.

Results

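Chromosome 10 (Chr10) was examined in 19 samples, namely 4 adenomas (HCA) and 6 carcinomas (HCC) of the hepatocytes and 9 unaffected livers, by array comparative genomic hybridization (aCGH), which compares the DNA of a sample with that of a control on the same array. Its members were all probes that the array places on Chr10 of the mouse build NCBI37 (mm9), 11728 of 221455 autosomal probes, lying between positions 3002742 and 129970985. They were grouped into 26 of the 500 autosomal bins of 5 Mb that held at least 50 probes, with 201 to 796 probes in a Chr10 bin. Chr10 was selected on its measured ratio, which was low in the HCAs and not in the HCCs, so the whole-chromosome values of the groups are given as a description, with no test.

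All mice were homozygous for the floxed Mad2l1 allele (f/f) on a C57BL/6.129 background and carried Alb-Cre, which is driven by the albumin promoter and so acts in hepatocytes. The HCAs came from 4 female mice of 12 to 16.9 months, 2430 and 6199 with Trp53 f/f and 5884 and 5901 with Trp53 f/+. The 6 HCCs came from 5 mice of 12.3 to 16.2 months with the Trp53 R246S mutation, of which 6240 (tumors 4 and 2) and 6602 were female and 6487, 6565 and 6642 were male. Each of the 9 mice gave 1 unaffected liver, and sample DNA was always set against wild-type liver DNA of the opposite sex. The grade of a tumor cannot be told apart from its Trp53 allele, since no HCA carried R246S and no HCC carried a floxed Trp53 allele.

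Mad2l1 is a core protein of the spindle assembly checkpoint, which holds cells in mitosis until every chromosome is attached to the spindle. Cells without the checkpoint can gain or lose whole chromosomes. A missegregated chromosome changes over its whole length, whereas a break followed by loss or gain changes a stretch of it, so the evenness of a ratio along a chromosome separates both kinds of profile.

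Among the genes the reference assembly GRCm38 places on Chr10 are the bile acid receptor Nr1h4, the growth factor Igf1, the p53 ubiquitin ligase Mdm2, the apoptosome component Apaf1, the kinase Stk11 and the Hippo pathway kinase Lats1. It holds 1001 protein-coding genes. Lists for liver function, cell death, cell cycle, signalling and immunity, 42 genes in all, were drawn up from genes of Chr10. That all 42 lie on it is therefore no result. The probes are not paired with genes in the tables used here, so ratios of single genes were not analysed here.

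In the livers the X ratio went with the sex on the labels. It lay between 0.885 and 1.04 in the 6 female livers and between −1.02 and −0.902 in the 3 male livers. A difference of 1 copy gives a ratio near 1 on the log2 scale. The HCCs of males lay between −1.06 and −1.04. Tumors of females were above 0, but some were low. The HCAs lay between 0.771 and 1.07, and HCC 6602 was at 0.958. Tumor 4 of mouse 6240 was at 0.729 and tumor 2 at only 0.322, the cause of which was not tested. Of the Chr10 spots of an array, 98.2% to 99.9% were well above background in both channels. Probe noise, taken from the differences of neighbouring Chr10 probes, was 0.174 to 0.413, and the noisiest array was that of the unaffected liver of mouse 6240.

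Before subtraction of the own liver, Chr10 was lower in all 4 HCAs than in any liver or HCC. The Chr10 ratio, the mean log2 ratio of its probes after centring on the autosomal median of the array, was −0.33 in HCA 2430, −0.23 in HCA 6199, −0.17 in HCA 5884 and −0.13 in HCA 5901. The HCA mean was −0.21 ± 0.089 (SD, n = 4). The 2 HCAs with Trp53 f/f were below the 2 with Trp53 f/+, a comparison of 2 against 2 that no exact test can call.

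The HCCs lay around the level of the livers. Their Chr10 ratios were −0.089 in HCC 6602, −0.081 in tumor 4 of mouse 6240, −0.029 in tumor 2 of mouse 6240, −0.024 in HCC 6565, −0.017 in HCC 6642 and 0.059 in HCC 6487. The HCC mean was −0.030 ± 0.053 (SD, n = 6). HCC 6602 and tumor 4 of mouse 6240 were clearly below every liver, tumor 2 of mouse 6240 was just below the lowest liver at −0.028, and HCC 6487 was above 8 of the 9.

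**Figure D1:**
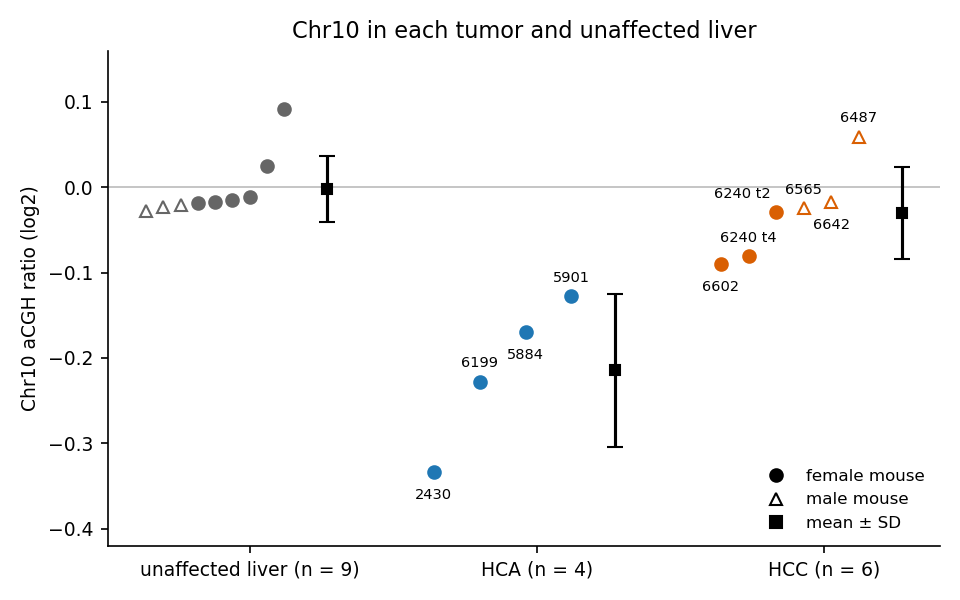
Chr10 aCGH ratio (log2) of each sample, with circles for female and open triangles for male mice and squares for the group mean ± SD. The 4 HCAs lie from −0.33 to −0.13, below all 6 HCCs (−0.089 to 0.059) and all 9 unaffected livers (−0.028 to 0.092).

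The livers ranged from −0.028 to 0.092 with a median of −0.017 and a mean of −0.0019 ± 0.038 (SD, n = 9). One liver stood apart. The unaffected liver of mouse 6240 had a Chr10 ratio of 0.092, and without it the other 8 ranged from −0.028 to 0.025. This liver is the reference of both HCCs of its mouse, so Chr10 differences, spreads over bins and steps are given against the other 8 livers as well.

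Within the livers, Chr10 did not differ detectably by Trp53 genotype. The 5 livers with Trp53 R246S had a mean ratio of 0.0091 and the 4 with floxed Trp53 a mean of −0.016, a difference of 0.025 (exact two-sided permutation test over 126 arrangements, p = 0.452). All 4 floxed livers were of females and the R246S livers included all 3 of males, so genotype and sex cannot be fully told apart. This comparison also depended on the processing. Values without centring keep the level of the whole array. Centring on all probes takes in X, whose ratio differs by sex. The difference was 0.053 without centring and 0.040 with centring on all probes, each with an exact permutation p = 0.0159, and −0.0084 (p = 1) within scan days.

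Set against the liver of the same mouse, Chr10 differed by −0.32 in HCA 2430, −0.21 in HCA 6199, −0.16 in HCA 5884 and −0.11 in HCA 5901 on the log2 scale. As a change in DNA amount this was −19.7%, −13.7%, −10.4% and −7.28%, or 1.61, 1.73, 1.79 and 1.85 copies of Chr10 for each 2 copies of the median autosome. The other tumors included 3 HCCs in the same range, namely tumor 4 of mouse 6240 at −0.17, tumor 2 at −0.12 and HCC 6602 at −0.11, so that HCAs and HCCs overlapped on this measure. Against the mean of the 8 livers other than that of mouse 6240 they did not, with HCAs from −0.32 to −0.11 and these 3 HCCs at −0.067, −0.016 and −0.076. That reference takes the same value from every tumor. It therefore keeps the order of the ratios that selected Chr10 and is no separate support. None of the 4 HCAs reached the value of a loss of 1 of 2 copies in every cell, and the ploidy of the cells was not measured. In bulk DNA, a smaller share of cells with a loss and a smaller loss per cell cannot be told apart.

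The low value was seen in the sample channel. From liver to tumor, the processed Cy5 signal of Chr10 relative to the autosomes changed by −0.20 ± 0.093 on the log2 scale (SD, n = 4) in the HCAs, and the Cy3 signal of the control DNA by 0.0039 ± 0.0031. In single HCAs the Cy3 difference was between 0.0016 and 0.0084. The HCA difference in Cy5 was larger than that in Cy3 in each of the 4 pairs. Both channels make up the ratio that selected Chr10, so these values are a description and no separate support.

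The loss of the HCAs ran the length of the chromosome. All 26 bins were below the own liver in each of the 4 HCAs, and the bin nearest to the liver was still at −0.072, in HCA 5901. The bins of tumor minus own liver ran from −0.35 to −0.26 in HCA 2430, from −0.27 to −0.18 in HCA 6199, from −0.24 to −0.11 in HCA 5884 and from −0.15 to −0.072 in HCA 5901. The ranges of HCA 2430 and HCA 5901 did not meet, whereas those of neighbours in this order overlapped.

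**Figure D2:**
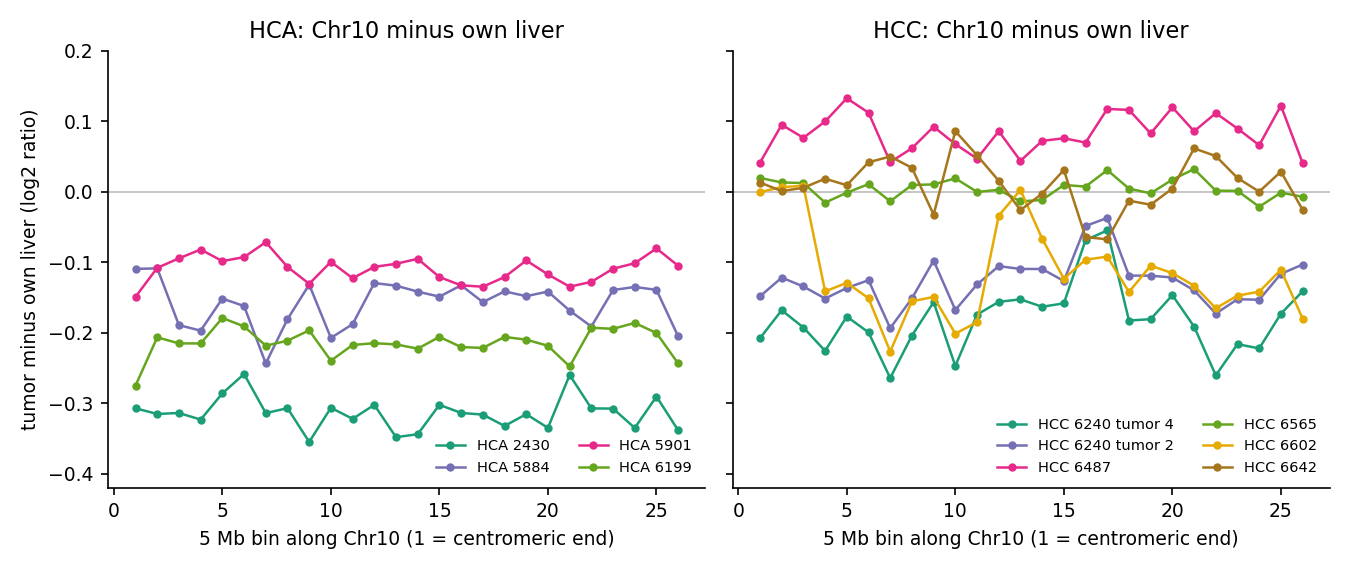
Tumor minus own liver (log2 ratio) in the 26 bins of 5 Mb along Chr10, 1 line per tumor, with HCAs on the left and HCCs on the right. Every HCA line stays below 0 from end to end, whereas the HCC lines lie between −0.26 and 0.13 and that of HCC 6602 steps between 0.0084 and −0.23.

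The SD over the 26 bins measured how even a profile was. It was 0.019 in HCA 5901, 0.021 in HCA 6199, 0.023 in HCA 2430 and 0.033 in HCA 5884. Noise of the probes alone would give 0.014, 0.012, 0.015 and 0.016 in the same order. Thus the bins of an HCA varied 1.40 to 2.10 times as much as probe noise gives, and this variation was 7.37% to 20.7% of the size of the loss.

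No common pattern was seen between HCAs in the variation that remained. Over the 26 bins, the correlation of the differences from the own liver lay between −0.41 and 0.35 for the 6 pairs of HCAs. Between alternate probes of the same tumor it was 0.24 in HCA 2430, 0.62 in HCA 5884, 0.17 in HCA 5901 and 0.32 in HCA 6199. Most of these profiles hardly repeated within a tumor, so the values between HCAs cannot decide whether variation was shared. In the mean of the 4 HCAs, the bins ran from −0.22 to −0.18 with an SD of 0.012. Bins of 1 chromosome share arrays and probe composition, so these correlations are descriptions.

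In the HCCs the same measure covered a wider range. The SD over bins of tumor minus own liver was 0.014 in HCC 6565, 0.028 in HCC 6487, 0.034 in tumor 2 of mouse 6240, 0.037 in HCC 6642, 0.049 in tumor 4 of mouse 6240 and 0.065 in HCC 6602. HCC 6565 was within 1.10 times the probe noise, and HCC 6602 was at 4.58 times. The mean was 0.038 in HCCs and 0.024 in HCAs, a difference of 0.014 that did not pass the test (exact two-sided permutation test over 210 arrangements, p = 0.186). Against the mean of the 8 livers other than that of mouse 6240, the SD of tumors 4 and 2 of that mouse was 0.015 and 0.019. On that reference the mean was 0.031 in HCCs and 0.028 in HCAs, a difference of 0.0032 (exact permutation p = 0.729).

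The comparison with own livers was sensitive to the samples used. With female mice alone the difference in SD was 0.025 (exact permutation p = 0.0286), but 2 of the 3 HCCs were then tumors of mouse 6240, which share a mouse and a liver and are no independent samples. With both averaged it was 0.029 (exact permutation p = 0.0667), and against the 8 other livers 0.0030 (exact permutation p = 0.943). With all mice it was 0.014 (exact permutation p = 0.0381) without background subtraction and 0.018 (p = 0.0476) without HCC 6565 or without its liver.

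**Figure D3:**
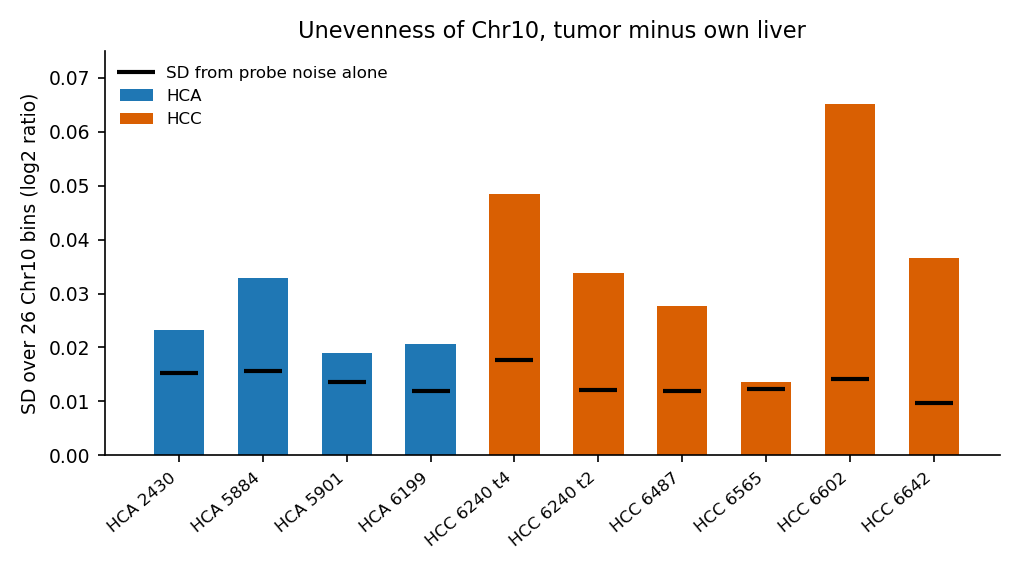
SD over the 26 bins of Chr10 of tumor minus own liver (log2 ratio), with HCAs in blue and HCCs in orange, and a black bar at the SD that probe noise alone gives. The HCAs lie between 0.019 and 0.033 and the HCCs between 0.014 and 0.065, with HCC 6602 the highest.

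Before subtraction of the liver, the SD over bins did not separate the groups. It averaged 0.040 ± 0.0076 in HCAs (SD, n = 4), 0.035 ± 0.015 in HCCs (SD, n = 6) and 0.032 ± 0.0073 in livers (SD, n = 9). HCA against liver gave an adjusted p = 0.403, and both other comparisons an adjusted p = 0.735 (exact permutation tests, Benjamini-Hochberg over 3). HCC 6602, at 0.065, decided the comparison of HCC with HCA. Without it HCCs were more even than HCAs by 0.011, with an exact permutation p = 0.00794 and an adjusted p = 0.0238. Both tumors of mouse 6240 were then among the remaining HCCs, and they are no independent samples. This was 1 of 267 exact tests rerun under other settings, of which 7 had p under 0.05.

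The 2 parts of the chromosome, before and after the middle probe at 70.3 Mb, were also compared. The proximal minus the distal part averaged −0.033 in HCAs, −0.012 in HCCs and −0.022 in livers. None of the 3 differences passed the test (exact permutation tests, each adjusted p = 0.341). Between mice of the same tumor group the values lay from −0.051 to −0.019 in HCAs and from −0.037 to 0.018 in HCCs.

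No single bin of Chr10 was called apart from the level of its chromosome. With limma on the bin value minus the chromosome mean, fitted over all 500 autosomal bins, 0 of 26 Chr10 bins passed an adjusted p of 0.05 for HCA against liver, for HCC against liver or for HCC against HCA. The background was 0% of all bins in each of the 3 comparisons. At an unadjusted p under 0.05 there were 0, 2 and 0 Chr10 bins, against 25, 24 and 46 of all 500 bins.

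The bins farthest from the chromosome mean in HCAs had the same sign in the livers. Relative to the chromosome mean, the lowest were the bin from 45012500 to 49999289 at −0.073 ± 0.013, the centromeric bin at −0.061 ± 0.041 and the bin from 30013389 to 34984710 at −0.054 ± 0.030 (SD, n = 4). The livers stood at −0.039, −0.038 and −0.015 in them. The highest were the bins from 90013039 to 94995402 at 0.068 ± 0.050, from 80001457 to 84998124 at 0.059 ± 0.033 and from 75002504 to 79998085 at 0.046 ± 0.021 (SD, n = 4). The livers stood at 0.032, 0.030 and 0.027 there. Over the 26 bins the mean profile of the HCAs had a correlation of 0.84 with that of the livers.

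The values that chose the chromosome also gave the counts of bins without overlap. In 25 of 26 Chr10 bins all HCAs were below all livers, where 23.6% of all autosomal bins were, and in 20 of 26 all HCAs were below all HCCs, where 4.6% of all bins were. In 0 of 26 bins were all HCCs below all livers, against 0.8% of all bins. The bin in which an HCA met a liver was that from 90013039 to 94995402, in which the livers had an SD of 0.076.

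Steps along the chromosome were sought in windows of 20 probes, of which Chr10 held 586. A step was a change of at least 0.1 between neighbouring stretches of at least 10 windows. Against its own liver no HCA had a step on Chr10, beside 10.5% of all autosomes of HCAs, a share at which 0 of 4 is near the background. Among HCCs, 20.2% of autosomes had one, and on Chr10 they were found in HCC 6602 and in both tumors of mouse 6240. Against the mean of the livers other than that of mouse 6240, HCA 5901 had a short stretch from 91537832 to 93823011 at 0.046, between values of −0.12 on either side. Its own liver had a ratio of 0.17 in that stretch and of −0.020 and −0.027 on either side.

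HCC 6602 was divided into 4 stretches. From 3002742 to 15029579 it was level with its liver, at 0.0053, and from 15046901 to 57493444 it was lower, at −0.16. From 57498335 to 67241351 it was again level, at 0.0061, and from 67251731 to the end it was lower, at −0.13. Both low stretches were below the range of all 9 livers, the first at a ratio of −0.14 against −0.052 to 0.098 and the second at −0.094 against −0.019 to 0.094.

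The 3 steps of HCC 6602 were also found against the mean of the 8 livers other than that of mouse 6240, and in windows of even or odd probes alone, with the low stretches at −0.16 and −0.12 in even and at −0.17 and −0.13 in odd probes. With normexp the 3 steps were found with low stretches at −0.10 and −0.078. Without background subtraction the same stretches stood at −0.088 and −0.069, and no step was found. Over the same 4 stretches HCA 2430 stood at −0.31, −0.31, −0.34 and −0.32 from its liver, and HCA 6199 at −0.22, −0.21, −0.21 and −0.21. HCA 5884 stood at −0.14, −0.18, −0.13 and −0.15, nearer to its liver in both stretches in which HCC 6602 was level, and its profile over the 26 bins had a correlation of 0.65 with that of HCC 6602. HCA 5901 stood at −0.11, −0.10, −0.10 and −0.11.

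**Figure D4:**
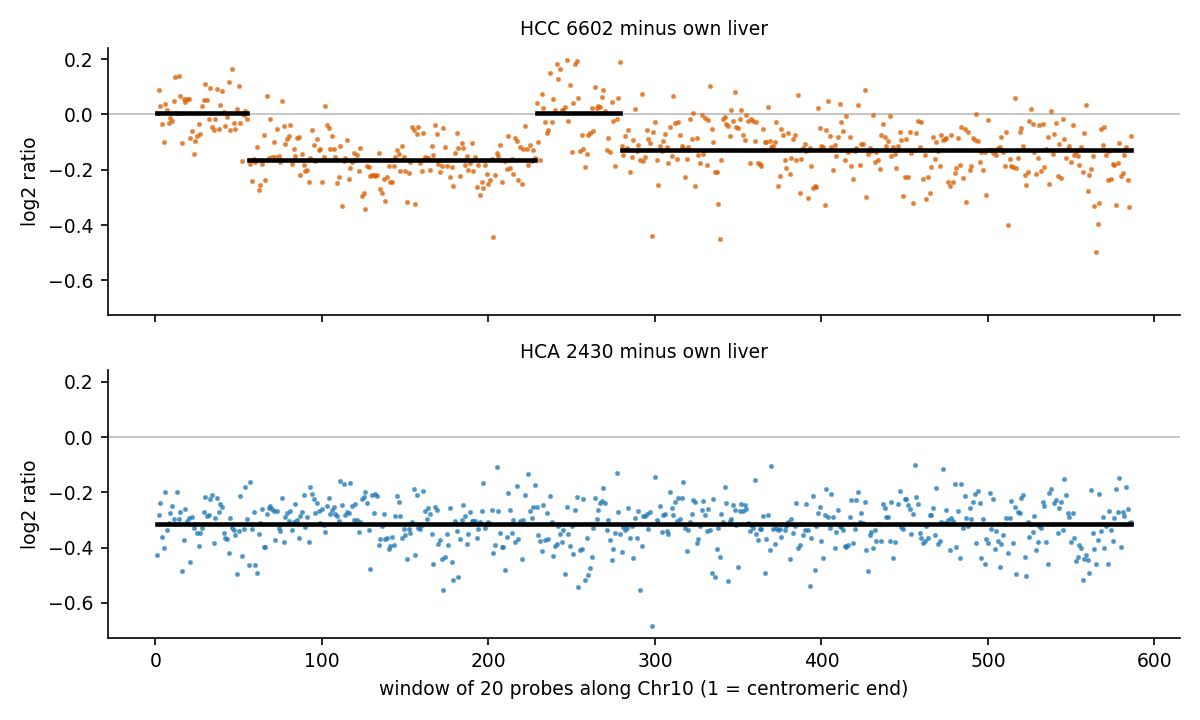
Tumor minus own liver (log2 ratio) in 586 windows of 20 probes along Chr10 for HCC 6602 (top) and HCA 2430 (bottom), with black lines at the means of the stretches found. HCC 6602 alternates between values near 0 and values of −0.16 and −0.13, and HCA 2430 is a single stretch at −0.32.

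In mouse 6240 the steps followed the liver. Tumors 4 and 2 were at −0.18 and −0.13 from their liver up to 79.1 Mb, at 0.090 and 0.051 from 79.1 to 81.1 Mb, and at −0.18 and −0.13 beyond. The liver itself was 0.11 above the mean of the other livers up to 79.1 Mb, 0.12 below it in the short stretch, a difference of −0.12, and 0.12 above it beyond. Against the 8 other livers neither tumor had a step, and their Chr10 differences were −0.067 and −0.016 in place of −0.17 and −0.12.

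HCC 6487, HCC 6565 and HCC 6642 had no step against their own livers, and 2, 2 and 4 against the 8 other livers. On that reference HCC 6642 stood at −0.12 from 74.5 to 81.5 Mb and at −0.11 from 126.3 to 128.4 Mb. HCC 6487 was above its liver in all 26 bins, by 0.083 on average, a DNA amount 5.92% higher. HCC 6565 and HCC 6642 were 0.0033 and 0.0034 from their livers, with 10 and 8 of 26 bins below 0. In HCC 6642 a stretch from 79.4 to 81.1 Mb stood at −0.14 from its liver when breaks were not moved to their best place after joining, and one from 78.9 to 81.5 Mb at −0.13 with loess. Before subtraction of the own liver, its profile had a correlation of 0.70 over bins with that of the liver of mouse 6240.

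The unaffected livers showed what the same rule finds without a tumor. Set against the mean of the other livers, 31% of their autosomes had a step, and on Chr10 those of mice 5901, 6199, 6240, 6487 and 6565 had one. The shares of the tumors above were against the own liver and are not like this one. Against other livers, 1 to 9 of the 19 autosomes of a liver had a step. Against the 8 livers other than that of mouse 6240, 5 to 9 had one in an HCA and 2 to 11 in an HCC. Those of 6487 and 6565 were low from about 91.5 to 93.8 Mb. HCC 6487 and HCC 6565 had the same low stretch, at −0.11 and −0.18, against the mean of the 8 livers other than that of mouse 6240, and none against their own livers.

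The 10 windows in which livers differed most were also read in the tumors. In the window from 81123692 to 81536416 the livers ranged from −0.41 to 0.54 with an SD of 0.38, where the median window had 0.068. All 10 tumors had the same sign there as their own liver. The same held in the window from 117555239 to 117667175, in which livers ranged from −0.25 to 0.44. In the other 8 windows 6 to 9 of the 10 tumors had the sign of their own liver.

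Single windows more than 0.3 from the median of the chromosome were rare. HCAs had 1 such window among the 2344 Chr10 windows of 4 tumors, or 0.043%, where 0.459% of all autosomal windows of HCAs were that far. Of those 203 autosomal windows, 168 were in HCA 5884. HCCs had 17 among the 3516 Chr10 windows of 6 tumors, or 0.48%, where 0.63% of all autosomal windows were. Of these 17, 9 were in HCC 6602, 7 in tumor 4 of mouse 6240 and 1 in HCC 6487. These counts were 0 and 0 without background subtraction, so they depend on the processing.

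The window of HCA 2430, from 71.0 to 71.4 Mb, was also among those of HCC 6602. It stood at −0.51 in HCA 2430 and 0.17 in its liver, and at −0.20 in HCC 6602 and 0.24 in its liver. Livers varied in this window, from −0.040 to 0.34 with an SD of 0.12, where the median window had 0.068. The window farthest from the median in HCC 6602, from 127.5 to 127.6 Mb, had a ratio of −0.39, and the liver of its mouse had 0.11, where the livers had an SD of 0.056.

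HCC 6602 and both tumors of mouse 6240, the HCCs of females, were below their livers, and the 3 HCCs of males were not. Chr10 averaged −0.14 ± 0.032 from the own liver in females (SD, n = 3 tumors of 2 mice) and 0.030 ± 0.046 in males (SD, n = 3). The difference of −0.17 had p = 0.1 by an exact two-sided permutation test over 20 arrangements, the smallest p that 3 against 3 allows. Against the mean of the 8 livers other than that of mouse 6240, females averaged −0.053 and males 0.020, a difference of −0.073 (exact permutation p = 0.1), and 2 of the 3 males were also below 0. Sex is also the sex of the control DNA here, and both cannot be told apart.

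With female mice alone, HCC was 0.076 below liver, a difference of −0.076, in place of −0.028 with all mice. HCA stayed 0.15 below HCC among females. Leaving out all 3 samples of mouse 6240 brought the difference of HCC from liver to −0.0043.

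The arrays had been scanned on 3 days, and HCAs and HCCs shared only the second. On day 1, 2 HCAs averaged −0.25 and 3 livers −0.016, and on day 2, 2 HCAs averaged −0.18 and 2 livers −0.019. HCA was thus lower than liver on both days, by 0.20 when taken within days, a difference of −0.20. On day 3, 5 HCCs averaged −0.048 and 4 livers 0.017.

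The size of the HCA loss depended on the background correction. With normexp it was −0.10 against liver, and without background subtraction −0.11, in place of −0.21. Each HCA was still below its own liver, by values between −0.14 and −0.024 with normexp and between −0.16 and −0.068 without subtraction. With normexp the HCCs ranged from −0.16 to 0.072 from their own livers, which spans all the HCAs.

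Chr10 was 1 of 5 chromosomes that were lowest on average in HCAs. From own liver, the HCA means were −0.24 for Chr3, −0.23 for Chr12, −0.21 for Chr13, −0.20 for Chr9 and −0.20 for Chr10, and next came Chr6 at −0.10. In HCA 2430 and HCA 6199 Chr10 was the third lowest autosome, in HCA 5884 the fifth and in HCA 5901 the sixth.

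In HCCs Chr10 was less low than the other 4, which restates its selection for a ratio low in HCAs and not in HCCs. Chr13 was at −0.26, Chr12 at −0.23, Chr9 at −0.17 and Chr3 at −0.16 from own liver. In all 6 HCCs each of these 4 was below 0, though some only slightly. Chr12 was at −0.011 in HCC 6565, and Chr9 at −0.016 in HCC 6487 and −0.0205 in tumor 2 of mouse 6240. Chr10 was at −0.053 and below 0 in 3 of 6, and against the 8 other livers at −0.017. The bins of Chr10 were as even as those of the others in HCAs, with a mean SD of 0.024 beside 0.026 to 0.030.

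**Figure D5:**
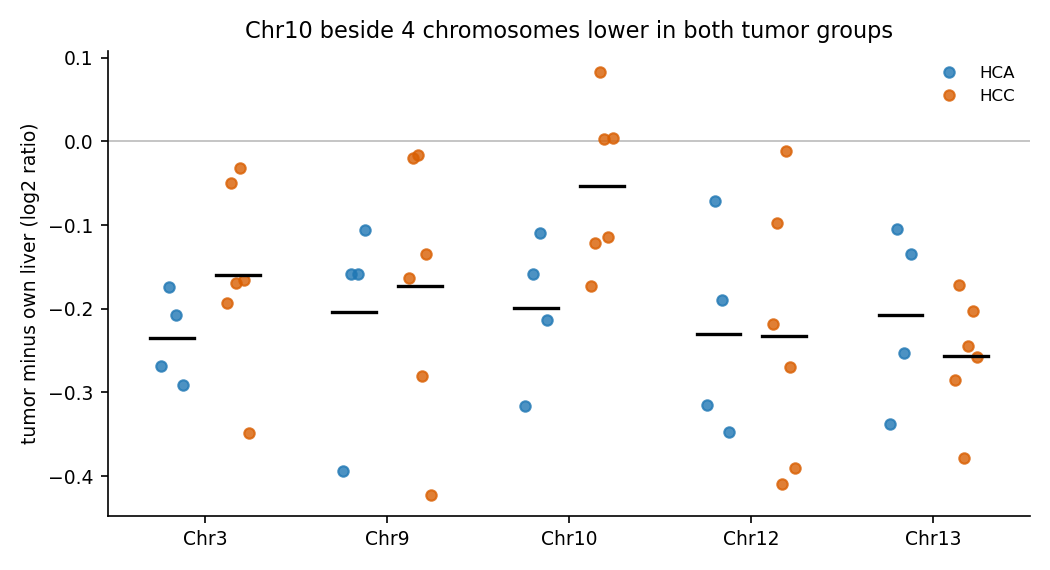
Tumor minus own liver (log2 ratio) of Chr3, Chr9, Chr10, Chr12 and Chr13, with HCAs in blue, HCCs in orange and a black line at the mean of each group. HCA means lie between −0.24 and −0.20 for all 5, and the HCC mean is −0.053 for Chr10 and −0.26 to −0.16 for the others.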

How the data were processed

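Genomic DNA of 19 samples was hybridised, 1 sample per array, with sample DNA in Cy5 and control DNA in Cy3. The deposited scanner files hold, per spot, the log10 ratio and the processed signals that the authors' scanner software (Feature Extraction 10.5.1.1) made with background subtraction and linear dye normalization, and the median intensity of spot and local background. Equal log10 ratios stand in the deposited series table. Outlier spots and controls were left out, spots of a probe averaged, and ratios converted here from the deposited log10 to the log2 scale, on which each array's autosomal median was set to 0. Depth does not apply to arrays, whose number limits the precision.

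Chromosome 10 and the gene lists were chosen with earlier results of these data known. Bins had at least 50 probes. Groups were compared with limma 3.58.1 in R 4.3.3 and exact permutation tests, threshold 0.05, after tests on simulated data. Samples came from separate mice, except 2 HCCs of mouse 6240. Tumors and livers with the same number come from the same mouse, so the mouse was a block in an alternative, as were background correction, loess, centring, bin width, probe filters, scan day and leaving out each sample. The rule for steps, the comparison of HCCs by sex and the use of other livers as reference, and the steps with other corrections or alternate probes, were added after the data were seen. Bins named by value were the 3 farthest to either side in HCA. Probe sequences and ratios of single genes, Mad2l1 and Trp53 included, were not analysed here.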

Additional observations from a re-analysis of the deposited data

Results flagged for a closer look

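The unaffected liver of mouse 6240 stood apart from the other livers, with a Chr10 ratio of 0.092. Its gap to the next liver was 0.557 of the range of the group, and its array had the highest probe noise, 0.413. Against the other 8 livers, both HCCs of its mouse were at −0.067 and −0.016 in place of −0.17 and −0.12. This change of reference shifts both tumors by the same amount and gives up the pairing. The cause of the high ratio of this liver was not tested.

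HCC 6602 stood apart from the other HCCs in the SD over its Chr10 bins, at 0.065, with a gap of 0.916 of the range of the group. In 4 stretches of the chromosome it stood at 0.0053, −0.16, 0.0061 and −0.13 from its liver. Chance flags about 1 in 20 groups, and 13 groups of values were looked at.

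Chr10 was below the own liver in all 3 HCCs of females and not below it in the 3 of males, with a difference of −0.17 between the means. Of the males, HCC 6487 was above its liver by 0.083. HCC 6565 and HCC 6642 were about level with theirs, at 0.0033 and 0.0034. The test of the difference could not reach the threshold in this design (exact permutation, p = 0.1). With normexp HCC 6642, of a male, was at −0.090, so the split by sex did not hold there. Against the 8 livers other than that of mouse 6240 the difference was −0.073, and 2 of the 3 males were below 0, so the split did not hold there either. Sex and the sex of the control DNA cannot be told apart.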

How the results depend on the processing

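Of 479 recomputed values, 453 kept their direction and their side of the threshold, or moved by less than the spread between replicates. Where limma took the mouse as replicate block, 0 Chr10 bins were called in each comparison, and with exact sign flips of tumor minus own liver the bin spread differed by 0.0030 in HCA (p = 0.5) and 0.0044 in HCC (p = 0.688). The pairing turned proximal minus distal to 0.0026 in HCA and −0.0021 in HCC (each p = 0.75, exact sign flips), and changed no other call. Sign flips of the HCAs could not reach the threshold with so few pairs. Those of the HCCs took both tumors of mouse 6240, which share a liver, as separate pairs. The Chr10 ratio moved to −0.10 with normexp and −0.11 without background subtraction in HCA against liver, to 0.079 and 0.093 in HCC against HCA, and to −0.076 with females only in HCC against liver. Bin spread reversed to −0.00015 with normexp in HCA against liver, and in HCC against HCA to 0.0032 with normexp, 3.29e-05 without background subtraction and 0.0011 with females only. The spread of tumor minus own liver passed the threshold with females only (0.025) and without background subtraction (0.014). The liver comparison by Trp53 gave 0.053 without centring, 0.040 centred on all probes and −0.0084 within scan days. Chr10 focal windows numbered 18, and 9 with loess, 11 with probes well above background and 0 without subtraction. Against the mean of the 8 other livers, steps rose from 0 to 2 in HCA and from 7 to 11 in HCC, and without background subtraction the HCC steps numbered 4. The settings for steps were chosen after seeing the data. The causes were not tested.

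Leaving out each sample in turn, 0 bins were called in any comparison. Bin spread ranged from 0.0040 to 0.010 for HCA against liver, from −0.0033 (without HCC 6602) to 0.0042 for HCC against liver and from −0.011 (without HCC 6602) to −0.0014 for HCC against HCA. The spread of tumor minus own liver ranged from 0.0081 to 0.018. Proximal minus distal ranged from −0.016 to −0.0050, from 0.0039 to 0.015 and from 0.015 to 0.026 for HCA against liver, HCC against liver and HCC against HCA. The Chr10 ratio ranged from −0.24 to −0.17, from −0.046 to −0.016 and from 0.14 to 0.21 in the same order, and the liver comparison from 0.0040 to 0.034. Gene-level results, and the alternative on probes per gene, were not run.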
